A study of Arabidopsis thaliana with 20 samples.

Results

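Sections cut at a similar distance from the tip of short and of long inflorescence stems of Arabidopsis thaliana were compared. The first was the piece 2 to 4 cm below the tip of stems about 5 cm long, cut on day 12 after the change to long days, and the second the piece 3 to 5 cm below the tip of stems about 10 cm long, cut on day 14. Of the 20 spotted 2-colour arrays in the series, 8 were chosen by the section named in their titles, 4 for the 2-4 cm section and 4 for the 3-5 cm section. Plants of both groups were accession Ler with no transgene or mutation named, grown in short days before the change. Flowers, siliques, cauline leaves and side branches had been discarded, so the RNA came from whole pieces of stem with all their tissues. Every array also carried RNA of the 0-2 cm section of 5 cm stems. Each value below is the log2 ratio of a section over that common RNA, which drops out of the difference between the sections, given throughout as 2-4 cm minus 3-5 cm.

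The inflorescence stem grows from its tip. Cells divide below the apex, then elongate while their primary walls are loosened by proteins such as expansins and remodelled at their pectins and xyloglucans, and later stop growing. Fibres and xylem vessels then lay down thick secondary walls that are stiffened with lignin. In such a stem a lower position means older tissue, and in a whole piece of stem fewer cells of a type and less RNA per cell cannot be told apart.

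The 8 arrays differed in how closely they agreed. Correlations across probes were 0.131 to 0.578 between arrays of the 2-4 cm section, 0.743 to 0.869 between arrays of the 3-5 cm section and 0.346 to 0.635 between sections. Ratios were spread less widely on the arrays of 2-4 cm (SD over probes 0.493 to 0.573) than on those of 3-5 cm (0.768 to 0.858). Replicates 1 and 2 of each section carried it in Cy5 and replicates 3 and 4 in Cy3, so dye was balanced. The photomultiplier settings for Cy3 and Cy5 were 62 and 59 for all 2-4 cm arrays and 62 and 61 for all 3-5 cm arrays, and array numbers were 2 to 5 and 10 to 13. Scanner setting, array number, day, stem length and distance from the tip therefore cannot be told apart. One label conflicts: the source name of 3-5 cm replicate 1 gives a 5 cm stem, and its title was followed. On each 3-5 cm array some probes had exactly repeated values, with medians of 0.333, 0.010, 0.854 and 0.897. Below, this median is termed the shared value of the array, and probes within 0.005 of it are said to lie at it. On replicate 2, where it was near 0, 305 probes lay at it although 111 had an exactly repeated value. On all 4 arrays, 41 tested probes lay at the shared value. Of these, 8 were called, all lower in 2-4 cm, and named genes among them are pointed out below. Such values were not confined to 3-5 cm. On 2-4 cm replicate 1, 287 probes had an exactly repeated value (median -0.391), against 2, 8 and 15 on replicates 2, 3 and 4. The 3-5 cm arrays had 71 to 111 such probes. Of the 41 probes, 29 also lay within 0.005 of -0.391 on 2-4 cm replicate 1.

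Of 25720 tested probes, 2893 differed between the sections at an adjusted p under 0.05 in limma, which is 11.2% of them. In the 2-4 cm section 1402 were higher (5.45%) and 1491 lower (5.80%), and 1488 differed at least 2-fold (5.79%), 708 higher (2.75%) and 780 lower (3.03%). The median difference over all probes was 0.00682 and the median SE 0.245. Among 7871 named loci, 1 probe each, 427 were higher (5.42%) and 416 lower (5.29%). On 5013 of the 25492 probes measured on all 8 arrays (19.7%) the 4 arrays of one section did not overlap with the 4 of the other, 2-4 cm lying above for 10.1% and below for 9.61%. When each array was scaled to the same spread, 1227 probes were called, 526 higher and 701 lower, or 42.9% higher against 48.5% without scaling.

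**Figure D1:**
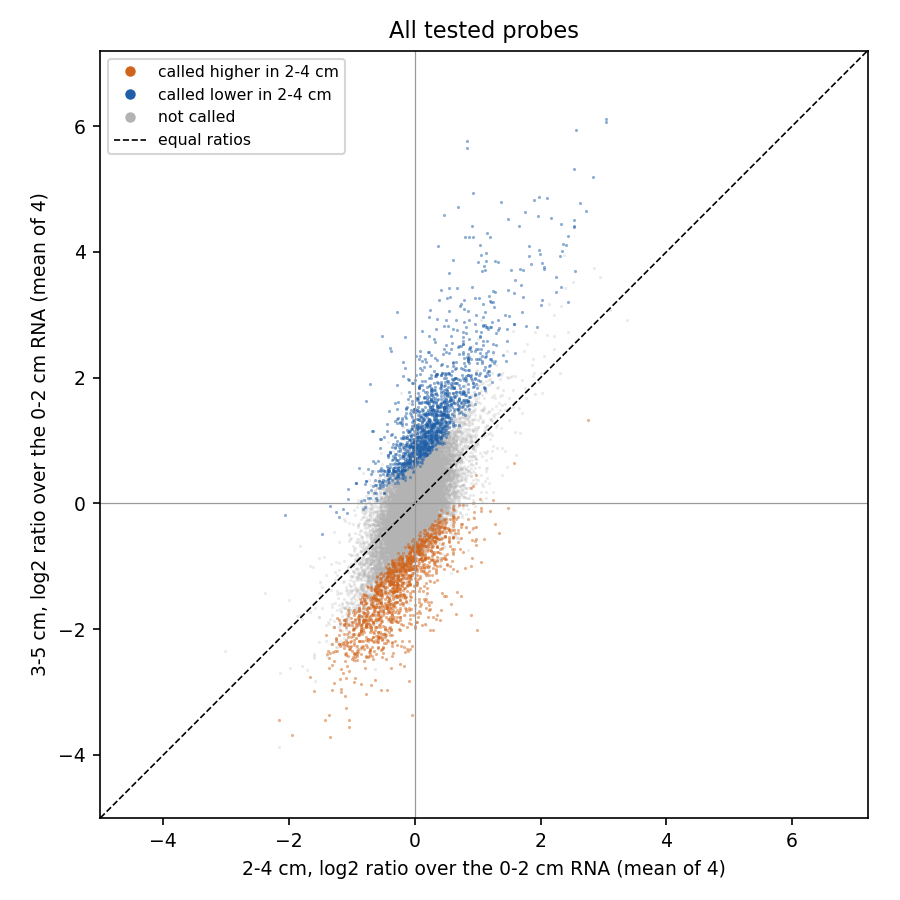
Mean log2 ratio over the 0-2 cm RNA of the 4 arrays of 2-4 cm (x axis) and the 4 arrays of 3-5 cm (y axis) for the 25720 tested probes, coloured by the call on their difference; the dashed line marks equal ratios. Most called probes lie farther from 0 on the y axis than on the x axis, and the common RNA is in both axes.

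Most called probes had the smaller departure from the 0-2 cm RNA in the 2-4 cm section. Of the 2893, 2072 had a 2-4 cm ratio between 0 and the 3-5 cm ratio, 17 had a 2-4 cm ratio beyond that of 3-5 cm, and 804 lay on the other side of 0. This majority was lost with arrays scaled to the same spread, when 600 of 1227 called probes lay between. Against the 0-2 cm RNA itself, 3478 probes were called for 2-4 cm (13.5%; 6.63% higher and 6.89% lower) and 10323 for 3-5 cm (40.1%; 19.9% higher and 20.2% lower). These counts share the common RNA and, in the positions, the arrays of the comparison itself, so they are descriptions. Positions were counted for called probes only, so no share over all tested probes stands beside them. Ratios were also spread more widely on the 3-5 cm arrays. The 0-2 cm RNA came from 5 cm stems, as did the 2-4 cm section, so 3-5 cm differs from that RNA in stem length as well as position.

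Genes for ribosomal proteins, the protein part of the translation machinery, were higher in the 2-4 cm section as a group. The gene groups here and below were chosen with earlier results of these data known, so their shares called are descriptions. Of 97 tested, 66 were higher, 2 lower and 29 not called, that is 70.1% called against 11.2% of all probes, and their median difference was 1.19 against 0.00682 over all probes. By array, the median over these genes was -0.52, -0.69, -0.87 and -0.32 for 2-4 cm and -1.87, -1.79, -1.83 and -1.85 for 3-5 cm. The 4 values of each section do not overlap with those of the other, and the 3-5 cm arrays were nearly equal. Against the 0-2 cm RNA, 41 of the 97 genes were called lower for 2-4 cm and 86 for 3-5 cm, beside 6.53% and 20.0% of named loci. Small-subunit (40S) genes gave 24 of 38 higher and none lower, with a median difference of 1.13, and large-subunit (60S) genes 42 of 59 higher and 2 lower, with 1.19. The median difference was 1.06 on the Cy5 arrays alone, with 91 of 97 genes above 0, and 1.15 on the Cy3 arrays alone, with 88 above 0. Over the 25492 probes measured on all 8 arrays, the medians were 0.02 (Cy5) and -0.00 (Cy3), with 13227 and 12712 probes above 0.

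With 1 array left out in turn, 53 to 62 ribosomal protein genes were called higher and 1 or 2 lower, with a median difference of 1.04 to 1.22. With arrays scaled to the same spread, 19 were called higher and 1 lower, and the median was 0.75.

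**Figure D2:**
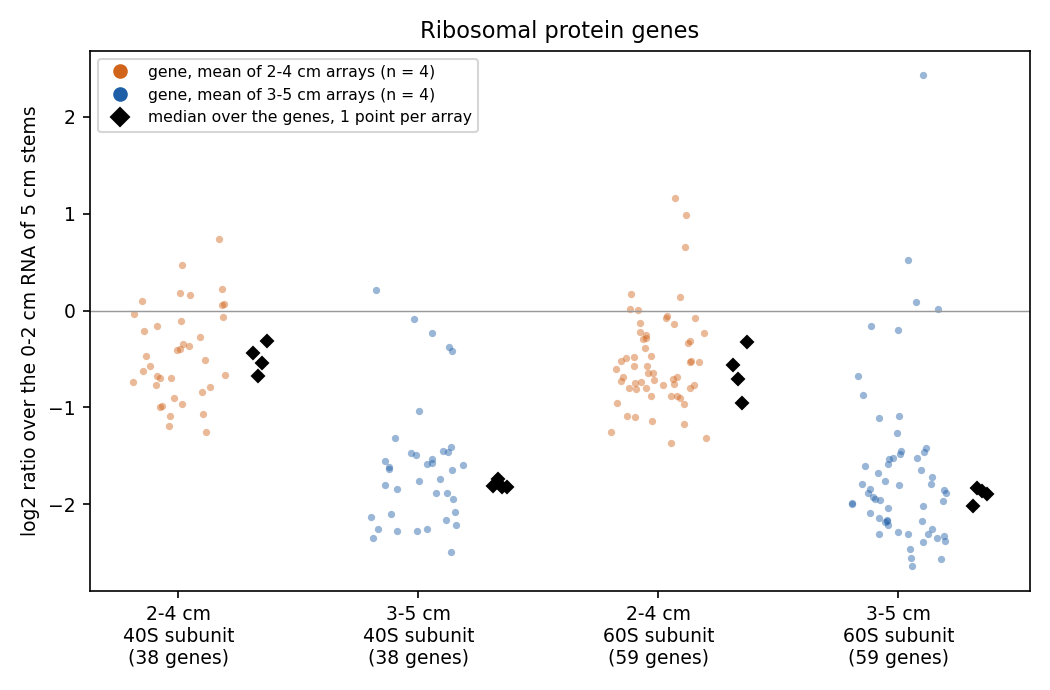
Log2 ratio over the 0-2 cm RNA of 38 genes of the 40S subunit and 59 of the 60S subunit, 2-4 cm left of 3-5 cm. Circles are genes (means of 4 arrays) and diamonds the median over the genes on each array, -0.44, -0.68, -0.54 and -0.31 for 2-4 cm and -1.81, -1.74, -1.82 and -1.82 for 3-5 cm in the 40S subunit.

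Among 40S genes, AT1G15930 had ratios of -0.52, -0.64, 0.67 and 0.35 in 2-4 cm, against -2.17, -2.13, -2.10 and -2.65 in 3-5 cm. Its difference of 2.23 ± 0.332 (SE, adjusted p = 0.000208) left no overlap between the arrays. AT3G09680 had -0.70, -1.12, 1.15 and -0.80 in 2-4 cm, against -2.56, -2.09, -2.05 and -2.18 in 3-5 cm, also without overlap (difference 1.85 ± 0.33, adjusted p = 0.000997). The 2-4 cm arrays of AT4G39200 split by dye: -0.37 and -0.68 in Cy5 and 2.56 and 1.44 in Cy3, against -1.48, -1.74, -1.88 and -0.79 in 3-5 cm (difference 2.21 ± 0.459, adjusted p = 0.00337). AT3G56340 overlapped, with -0.51, -2.16, 0.79 and 1.45 in 2-4 cm against -2.43, -2.22, -2.71 and -2.05 in 3-5 cm (difference 2.25 ± 0.426, adjusted p = 0.0017). 

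Among 60S genes, AT3G28900 had the highest difference of the named genes, 3.02 ± 0.554 (adjusted p = 0.00128). Its ratios were -0.36, -0.66, 2.92 and 2.06 in 2-4 cm, against -2.28, -1.41, -2.72 and -1.69 in 3-5 cm, so the 2 Cy3 arrays of 2-4 cm lay far above the 2 Cy5 arrays. The acidic stalk protein gene AT2G27710 had -0.29, 0.04, 0.90 and 1.99 in 2-4 cm, against -1.85, -1.77, -1.57 and -1.85 in 3-5 cm (difference 2.42 ± 0.441, adjusted p = 0.00122). AT5G23900 had -0.98, -0.60, 0.27 and 1.00 in 2-4 cm, against -2.24, -2.13, -2.49 and -2.39 in 3-5 cm (2.23 ± 0.321, adjusted p = 0.000158). In each of these genes every 2-4 cm array lay above every 3-5 cm array, which was also so for AT5G60670 (difference 2.33) and the stalk base protein gene AT3G09200 (2.18; with scaled arrays 1.86, adjusted p = 0.054). Over all 97 genes, both Cy3 arrays of 2-4 cm lay above both Cy5 arrays for 24 (24.7%) and below them for 32. Over the 25492 probes measured on all 8 arrays, the counts were 5436 above (21.3%) and 7248 below.

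The 2 lower members were AT3G22230 and AT4G00810. AT3G22230 had 1.71, 0.85, 1.01 and 1.07 in 2-4 cm, against 2.61, 2.16, 2.41 and 2.56 in 3-5 cm, so both sections were above the 0-2 cm RNA. Its difference was -1.27 ± 0.204 (adjusted p = 0.000408; with scaled arrays -0.69, adjusted p = 0.0808). AT4G00810, a stalk protein gene, was among the 41 tested probes at the shared value on all 3-5 cm arrays (0.33, 0.01, 0.85 and 0.90). On 2-4 cm replicate 1, where many probes repeated a value, AT4G00810 was at -0.39. Its difference of -1.05 ± 0.294 (adjusted p = 0.0234) was not called without replicates 3 or 4 of either section (-0.96 to -0.80).

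Of 10 translation factor and ribosome assembly genes, 3 were higher and none lower (30.0% called against 11.2% of all probes, median difference 0.63). The elongation factor subunit gene AT5G19510 had -0.72, 0.02, -1.38 and -0.81 in 2-4 cm, against -1.91, -1.51, -1.66 and -1.57 in 3-5 cm (difference 0.94 ± 0.238, adjusted p = 0.013), without overlap. AT5G12110, of the same complex, had 1.74 and 2.74 on the Cy3 arrays of 2-4 cm but -0.43 and -0.47 on the Cy5 arrays, against -0.24, -0.83, -1.25 and -1.64 in 3-5 cm, with overlap (difference 1.89 ± 0.537, adjusted p = 0.0256). With scaled arrays none of the 10 was called and the median was 0.11. With 1 array left out 1 to 3 were called, and 1 without any of replicates 2, 3 or 4 of 2-4 cm or 1, 3 or 4 of 3-5 cm. AT5G19510 lost its call without 2-4 cm replicate 2 (difference 0.68) or 3-5 cm replicate 1 (0.84). AT5G12110 lost it without replicate 3 or 4 of either section, with 1.27 as its lowest difference, and the third, AT1G57720 (0.81 ± 0.254, adjusted p = 0.0426), without any of 7 arrays (0.67 to 0.89).

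Among 7 chaperonin genes, whose products form folding chambers, 3 were higher and none lower (42.9% called against 11.2% of all probes), with a median difference of 0.02. The plastid subunit gene Cpn60beta2 had -1.84, -1.26, -2.07 and 0.95 in 2-4 cm, against -3.30, -3.49, -3.69 and -3.72 in 3-5 cm. Replicate 4 of 2-4 cm stood well above the other arrays of its section, and all 4 lay above 3-5 cm (difference 2.50 ± 0.42, adjusted p = 0.000615). With scaled arrays its difference was 1.77 (adjusted p = 0.0503). The cytosolic subunit genes AT3G11830 (0.64 ± 0.181, adjusted p = 0.0257) and AT3G02530 (0.63 ± 0.164, adjusted p = 0.0155) differed less. Both lost their calls when single arrays were left out (AT3G11830 without replicates 1 or 2 of 2-4 cm or 2 or 3 of 3-5 cm, adjusted p up to 0.0925, and AT3G02530 without replicates 2 or 4 of 2-4 cm, up to 0.0544). A further cytosolic subunit gene, AT3G03960, was far above the 0-2 cm RNA in both, 3.10 in 2-4 cm and 3.08 in 3-5 cm (difference 0.02 ± 0.218).

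Of 9 genes of cell division and DNA replication, 3 were higher, 1 was lower and 5 were not called. That is 44.4% called against 11.2% of all probes, with a median difference of 0.85. TOPII, AUR2, ATMAP65-6 and PRL of this list had been reported earlier for either section. The list was chosen with such results known, so its share called is a description. It also leaves out the division genes Haspin and BUBR1, which were called higher and are given under other observations. TOPII, the topoisomerase that untangles replicated DNA, had -1.24, -0.21, -0.16 and -0.26 in 2-4 cm, against -2.64, -2.23, -1.64 and -1.83 in 3-5 cm (difference 1.61 ± 0.425, adjusted p = 0.0167). HTR12, the centromeric histone H3, had -0.08, -0.23, -0.48 and -0.33 in 2-4 cm, against -1.47, -1.21, -1.29 and -1.36 in 3-5 cm (1.05 ± 0.275, adjusted p = 0.0158). In both genes the sections did not overlap. In 2-4 cm HTR12 was near the 0-2 cm RNA, as was TOPII on replicates 2, 3 and 4, while TOPII was below it on replicate 1 (-1.24). The mitotic kinase gene AUR2 averaged -0.95 ± 0.344 in 2-4 cm and -1.86 ± 0.478 in 3-5 cm (SD, n = 4 each; difference 0.91 ± 0.26, adjusted p = 0.0257). The replication licensing gene PRL differed by 0.78 ± 0.407 and was not called (adjusted p = 0.246).

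ATMAP65-6, a microtubule-associated protein gene, was the exception, with 1.13, 1.06, 1.09 and 1.46 in 2-4 cm against 1.67, 1.96, 1.90 and 2.92 in 3-5 cm (difference -0.93 ± 0.224, adjusted p = 0.00967). No member of this group was called with scaled arrays, under which the median was 0.58, and 1 was higher without 2-4 cm replicate 2 or without 3-5 cm replicate 1. TOPII lost its call without 2-4 cm replicate 2 (difference 1.43) or 3-5 cm replicate 1 (1.50), HTR12 without 3-5 cm replicate 1 (0.94), and AUR2 without replicates 1, 2 or 3 of 2-4 cm or 3 of 3-5 cm (adjusted p up to 0.114).

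Among 11 histone genes, whose products package DNA, 2 were higher, 1 was lower and 8 were not called (27.3% called against 11.2% of all probes, median difference 0.46). HTB2, a core histone H2B, had -0.73, -0.37, -1.10 and -1.21 in 2-4 cm, against -2.07, -2.21, -1.95 and -1.89 in 3-5 cm (1.17 ± 0.242, adjusted p = 0.00324). HIS4, a core histone H4, had -0.16, 0.16, -0.51 and -0.25 in 2-4 cm, against -0.92, -0.99, -1.05 and -0.88 in 3-5 cm (0.77 ± 0.177, adjusted p = 0.00696). The linker histone HIS1-3, a drought-responsive variant, ran the other way, with 1.07, 0.66, 0.67 and 0.39 in 2-4 cm against 1.74, 1.46, 2.01 and 2.34 in 3-5 cm (-1.19 ± 0.325, adjusted p = 0.021). None of the 3 overlapped between sections. The linker histone genes AT1G06760 (-0.43 ± 0.224, adjusted p = 0.245) and AT2G30620 (0.48 ± 0.263, adjusted p = 0.271) were not called. HIS1-3 was not called without replicates 3 or 4 of 2-4 cm or 4 of 3-5 cm (adjusted p up to 0.0747), and none of the 11 genes was called with scaled arrays.

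**Figure D3:**
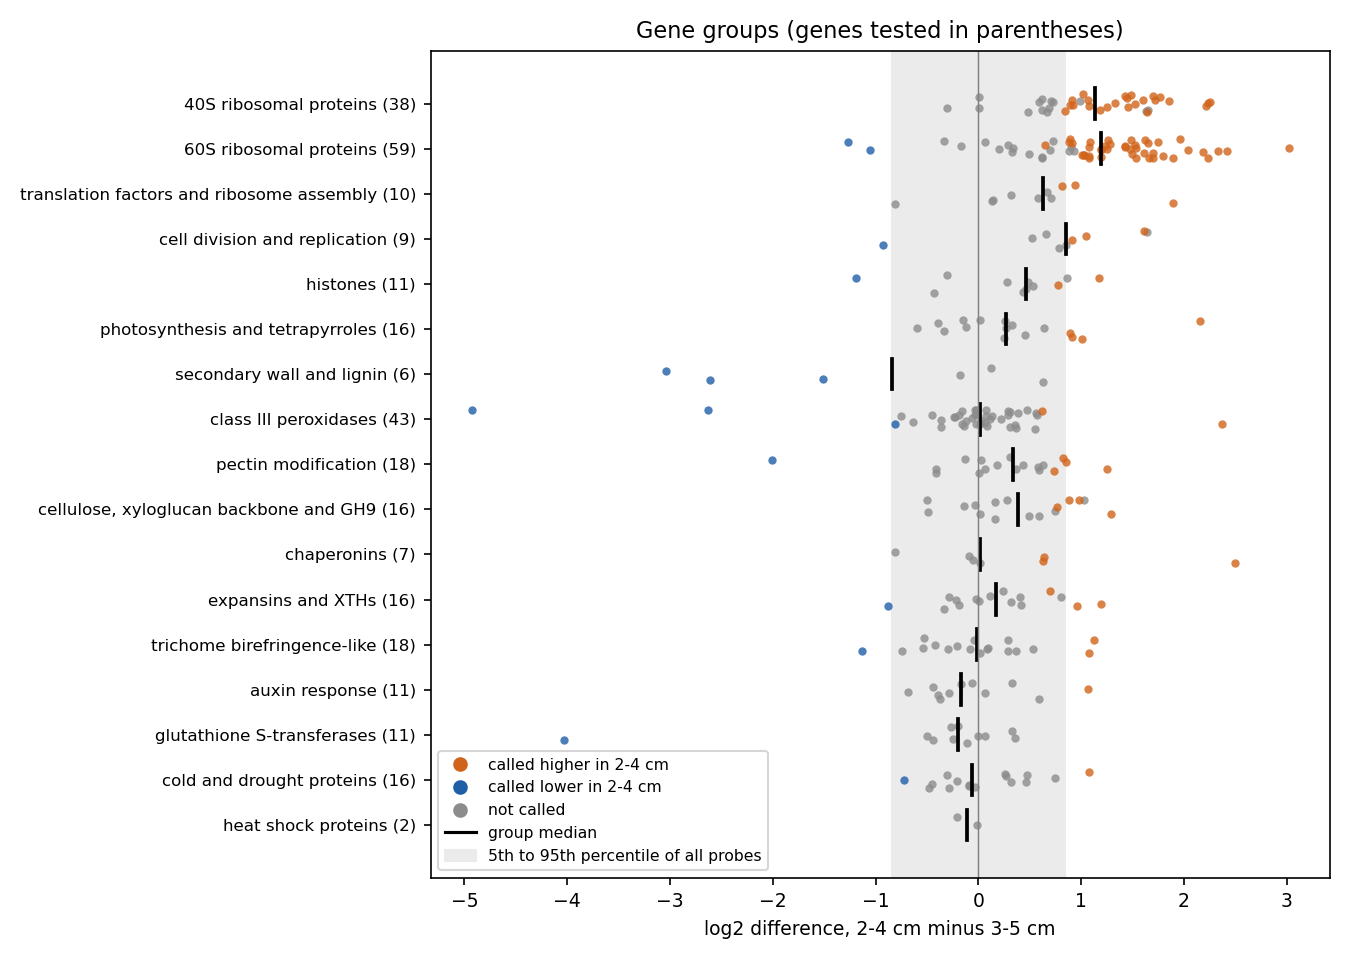
Log2 difference, 2-4 cm minus 3-5 cm, of each tested gene (1 probe per locus) in 17 gene groups, coloured by the call, with the group median as a black bar and the 5th to 95th percentile of all probes (-0.838 to 0.839) in grey. The 40S and 60S ribosomal protein groups have medians of 1.13 and 1.19, right of the grey band, and the secondary wall and lignin group has a median of -0.84.

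Among 16 expansin and xyloglucan endotransglucosylase/hydrolase (XTH) genes, which loosen and remodel the primary wall, 3 were higher, 1 was lower and 12 were not called (25% called against 11.2% of all probes, median difference 0.18). With scaled arrays 4 were higher and none lower: EXGT-A3 (-0.64, adjusted p = 0.107) and EXPB1 (0.76, adjusted p = 0.0519) were then not called. EXPA15, an expansin, had 1.61, 1.17, 1.23 and 1.00 in 2-4 cm, against 0.14, -0.20, 0.14 and 0.15 in 3-5 cm. It was above the 0-2 cm RNA in the 2-4 cm section, whereas the 3-5 cm section was close to that RNA (difference 1.19 ± 0.239, adjusted p = 0.00252). EXPB1 had -0.20, -0.02, -0.46 and -0.36 in 2-4 cm, against -1.29, -1.20, -1.04 and -1.34 in 3-5 cm (0.96 ± 0.217, adjusted p = 0.00628), and EXPA7 had 0.49, 0.61, 0.18 and 0.30 in 2-4 cm, against -0.14, -0.14, -0.54 and -0.40 in 3-5 cm (0.70 ± 0.202, adjusted p = 0.0276). EXGT-A3, an XTH, was lower, with 0.30, 0.73, 0.34 and 0.29 in 2-4 cm against 1.52, 1.29, 1.20 and 1.17 in 3-5 cm (-0.88 ± 0.242, adjusted p = 0.0219). The arrays of these 4 genes did not overlap between the sections.

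EXPA8 and XTH33 were well above the 0-2 cm RNA in both sections. EXPA8 had 2.33, 2.03, 1.55 and 1.66 in 2-4 cm and 2.16, 2.12, 1.88 and 2.19 in 3-5 cm, and its difference of -0.19 ± 0.321 was not called (adjusted p = 0.783). XTH33 lay between 1.92 and 2.54 in 2-4 cm and between 1.95 and 2.25 in 3-5 cm, with a difference of 0.24 ± 0.244 (adjusted p = 0.603). The arrays overlapped in both genes. With scaled arrays EXPA8 differed by 0.57 and was not called (adjusted p = 0.295), while XTH33 was called higher in 2-4 cm (adjusted p = 0.0207). EXPA7 lost its call without any of 5 arrays (differences 0.64 to 0.75 over the 8 arrays left out), and EXGT-A3 without replicate 1 of 2-4 cm or replicates 1 or 3 of 3-5 cm (adjusted p up to 0.0684).

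Of 18 genes for pectin enzymes, 4 were higher, 1 was lower and 13 were not called (27.8% called against 11.2% of all probes, median difference 0.34). The 4 that were higher encode pectate lyases, which cut the pectin backbone. Other pectate lyase genes were not called, among them AT3G01270 (-0.41 ± 0.164, adjusted p = 0.111), AT1G11920 (-0.41 ± 0.21, adjusted p = 0.239) and AT4G13710 (-0.13 ± 0.286, adjusted p = 0.832). AT1G67750 had 0.07, -0.12, 0.16 and 0.08 in 2-4 cm, against -1.42, -1.33, -1.31 and -0.76 in 3-5 cm (1.25 ± 0.249, adjusted p = 0.00241), and AT1G04680 had 0.09, 0.38, 0.03 and 0.24 in 2-4 cm, against -0.49, -0.72, -0.58 and -0.45 in 3-5 cm (0.74 ± 0.166, adjusted p = 0.00584). The 2-4 cm section was near the 0-2 cm RNA in both genes and did not overlap with 3-5 cm. AT3G07010 differed by 0.82 ± 0.208 (adjusted p = 0.0135) and AT4G24780 by 0.85 ± 0.242 (adjusted p = 0.0253).

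The lower pectin gene was ATPMEPCRD (AT2G43050), a pectin methylesterase. It had 1.69, 1.29, 2.32 and 1.57 in 2-4 cm, against 3.47, 3.56, 4.01 and 3.86 in 3-5 cm, above the 0-2 cm RNA in both and without overlap (difference -2.01 ± 0.314, adjusted p = 0.000321). With scaled arrays its difference was -1.12 and not called (adjusted p = 0.0716), and 3 pectin genes were higher. AT3G07010 lost its call without 2-4 cm replicate 2 (difference 0.64). AT4G24780 lost it without 2-4 cm replicate 4 (0.53), without replicates 2, 3 or 4 of 3-5 cm, and with scaled arrays (adjusted p = 0.0727).

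**Figure D4:**
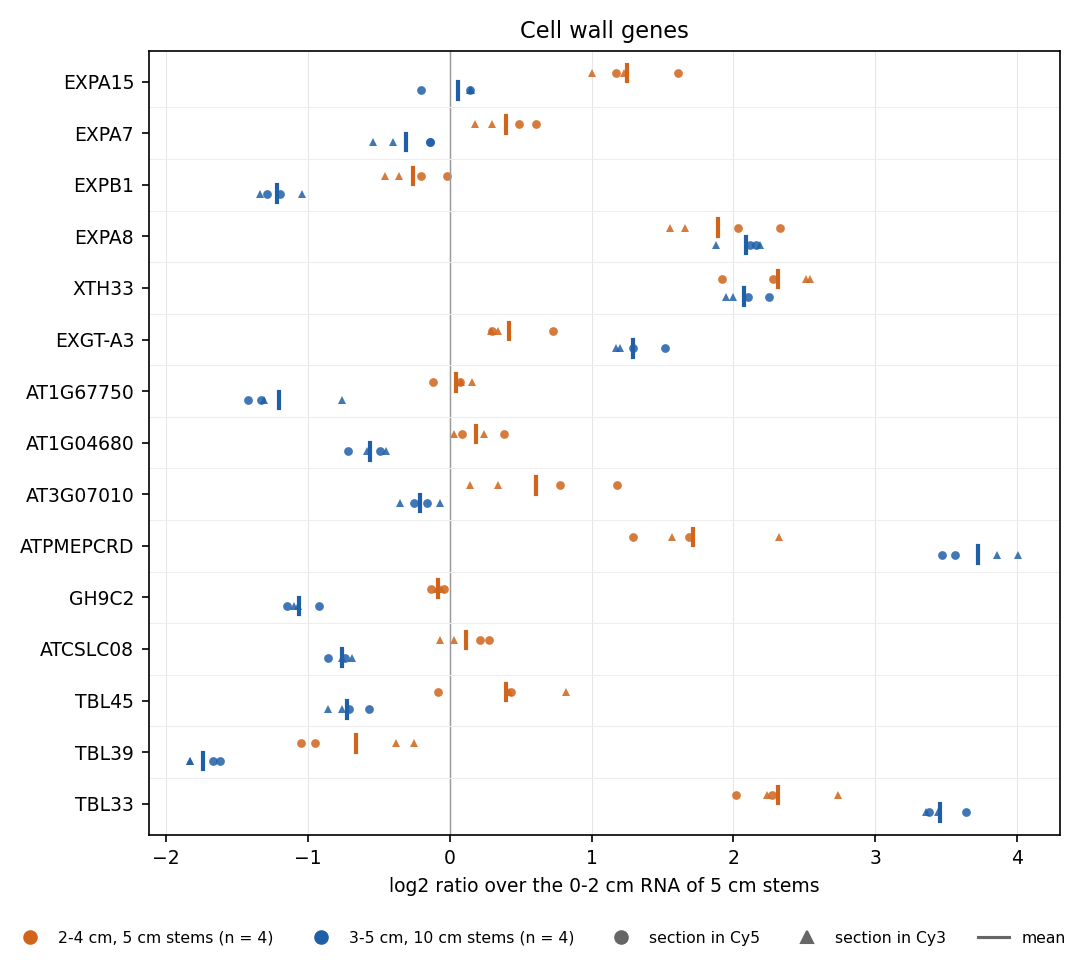
Log2 ratio over the 0-2 cm RNA on each of the 4 arrays of 2-4 cm (orange, upper in each row) and of 3-5 cm (blue, lower) for 15 cell wall genes, circles for Cy5 and triangles for Cy3 sections, bars for means. The 2-4 cm arrays lie right of the 3-5 cm arrays for EXPA15 (1.00 to 1.61 in 2-4 cm, -0.20 to 0.15 in 3-5 cm), left of them for ATPMEPCRD (1.29 to 2.32 in 2-4 cm, 3.47 to 4.01 in 3-5 cm), and overlap with them for EXPA8 and XTH33.

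Of 16 genes for cellulose and xyloglucan backbone synthesis and for family 9 glycosyl hydrolases (GH9), 4 were higher and none lower (25% called against 11.2% of all probes), with a median difference of 0.38. GH9C2, an endoglucanase gene of the GH9 family, had -0.13, -0.04, -0.06 and -0.09 in 2-4 cm, against -1.15, -0.92, -1.10 and -1.07 in 3-5 cm (0.98 ± 0.228, adjusted p = 0.00768). ATCSLC08, of the family that makes the xyloglucan backbone, had 0.21, 0.28, -0.07 and 0.03 in 2-4 cm, against -0.74, -0.86, -0.69 and -0.76 in 3-5 cm (0.88 ± 0.197, adjusted p = 0.00593). Both were close to the 0-2 cm RNA in the 2-4 cm section on all 4 arrays. GH9B8 (1.29 ± 0.393, adjusted p = 0.0374) and GH9B6 (0.76 ± 0.226, adjusted p = 0.0327) lost their calls without any of 7 and any of 6 arrays, and with scaled arrays (adjusted p of 0.106 and 0.282). Between 2 and 3 genes of this group were higher with 1 array left out, the lowest count being without 2-4 cm replicates 3 or 4 or 3-5 cm replicates 1 or 4.

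TRICHOME BIREFRINGENCE-LIKE (TBL) genes, whose products acetylate wall polysaccharides, gave 2 higher, 1 lower and 15 not called of 18 (16.7% called against 11.2% of all probes, median difference -0.01). TBL45 had 0.43, -0.08, 0.42 and 0.82 in 2-4 cm, against -0.57, -0.71, -0.86 and -0.76 in 3-5 cm (1.12 ± 0.203, adjusted p = 0.00116). TBL39 had -1.05, -0.95, -0.38 and -0.25 in 2-4 cm, against -1.62, -1.67, -1.83 and -1.83 in 3-5 cm (1.08 ± 0.235, adjusted p = 0.00476; with scaled arrays 0.69, adjusted p = 0.112). TBL33, a xylan acetyltransferase gene, averaged 2.32 ± 0.305 in 2-4 cm and 3.45 ± 0.129 in 3-5 cm (SD, n = 4 each), without overlap. Its difference of -1.13 ± 0.362 (adjusted p = 0.0463) was not called without any of 7 arrays, with the replicate number as a block (adjusted p = 0.0577) or with scaled arrays (-0.12, adjusted p = 0.903). TBL37 averaged 1.31 ± 0.31 in 2-4 cm and 1.84 ± 0.285 in 3-5 cm and was not called (-0.54 ± 0.211, adjusted p = 0.108).

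BGLU45, BGLU46 and AT1G22410, genes linked to lignin precursors, were lower in the 2-4 cm section. Of 6 tested genes for secondary walls and lignin, 3 were lower and 3 not called (50% called against 11.2% of all probes), with a median difference of -0.84. BGLU46 and AT1G22410 had been reported earlier for either section. The list was chosen with such results known, so its share called is a description. BGLU45 and BGLU46, neighbouring genes for beta-glucosidases that release lignin precursors from their glucosides, were above the 0-2 cm RNA in both sections and higher in 3-5 cm. BGLU45 had 0.82, 0.83, 1.50 and 1.59 in 2-4 cm, against 4.17, 4.14, 4.19 and 4.40 in 3-5 cm, a difference of -3.04 ± 0.478 (8.23-fold, adjusted p = 0.000339). BGLU46 had 2.18, 1.98, 1.94 and 1.74 in 2-4 cm, against 4.40, 4.24, 5.21 and 4.42 in 3-5 cm (-2.61 ± 0.475, adjusted p = 0.00121). The sections are far apart in both genes. A second BGLU46 probe had -0.06, -1.20, -0.40 and 0.14 in 2-4 cm, against -0.56, -0.19, -0.31 and -0.21 in 3-5 cm, so the 2 probes of this gene disagree (second probe -0.07 ± 0.289, adjusted p = 0.923).

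AT1G22410, an enzyme gene at the entry of the shikimate pathway that feeds lignin precursors, had 1.14, -1.13, 1.31 and 0.89 in 2-4 cm, against 1.91, 2.26, 2.01 and 2.08 in 3-5 cm (-1.51 ± 0.42, adjusted p = 0.0226). Without 2-4 cm replicate 2, the lowest of its arrays, the difference was -0.93 (adjusted p = 0.0821), without 3-5 cm replicate 2 it was -1.42 (adjusted p = 0.0636), and with scaled arrays -1.16 (adjusted p = 0.186). GUT2 (IRX10), which makes the xylan of secondary walls and marks xylem and fibres, was near the 0-2 cm RNA in both, -0.19 in 2-4 cm and -0.01 in 3-5 cm (difference -0.18 ± 0.33, adjusted p = 0.803). CCR2, a monolignol pathway reductase gene, was below that RNA in both (-0.84 and -0.96, difference 0.12 ± 0.247). UGT72E1, also of this group, had 0.12 in 2-4 cm and -0.52 in 3-5 cm and was not called (difference 0.63 ± 0.34, adjusted p = 0.26). 

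Class III peroxidases, secreted enzymes that act on wall phenolics, held the lowest and one of the highest differences. Of 43 tested, 2 were higher and 3 lower, 11.6% called against 11.2% of all probes, so the share called was that of the array as a whole, and the median difference was 0.02. AT2G37130 had 1.46, 0.88, 0.44 and 0.55 in 2-4 cm, against 5.61, 5.60, 6.15 and 5.71 in 3-5 cm. The difference was -4.93 ± 0.536 (30.5-fold, adjusted p = 1.01e-05). Its second probe had 0.38, 0.49, 0.59 and 1.87 in 2-4 cm, against 4.70, 4.77, 6.83 and 6.35 in 3-5 cm (-4.83 ± 0.603, adjusted p = 4.02e-05), so both probes place the gene far lower in 2-4 cm. AT4G37520 was likewise measured by 2 probes, with differences of -2.63 ± 0.351 (adjusted p = 8.7e-05) and -1.95 ± 0.366 (adjusted p = 0.00157).

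PRXCA, a peroxidase gene, ran the other way, with -1.74, -0.98, -1.30 and -1.37 in 2-4 cm against -3.39, -4.13, -3.96 and -3.38 in 3-5 cm. It was below the 0-2 cm RNA in both sections and farther below it in 3-5 cm (2.37 ± 0.481, adjusted p = 0.00277; with scaled arrays 1.60, adjusted p = 0.0507). AT1G30870 (-0.81 ± 0.211, adjusted p = 0.0153) lost its call without replicate 2 of 2-4 cm (-0.62) or 3 of 3-5 cm (-0.69), and AT5G39580 (0.62 ± 0.191, adjusted p = 0.0374) without any of 7 arrays. Neither was called with scaled arrays (adjusted p of 0.212 and 0.113). The peroxidase gene PRXR1, which was not called, lay at the shared value on the 3-5 cm arrays.

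**Figure D5:**
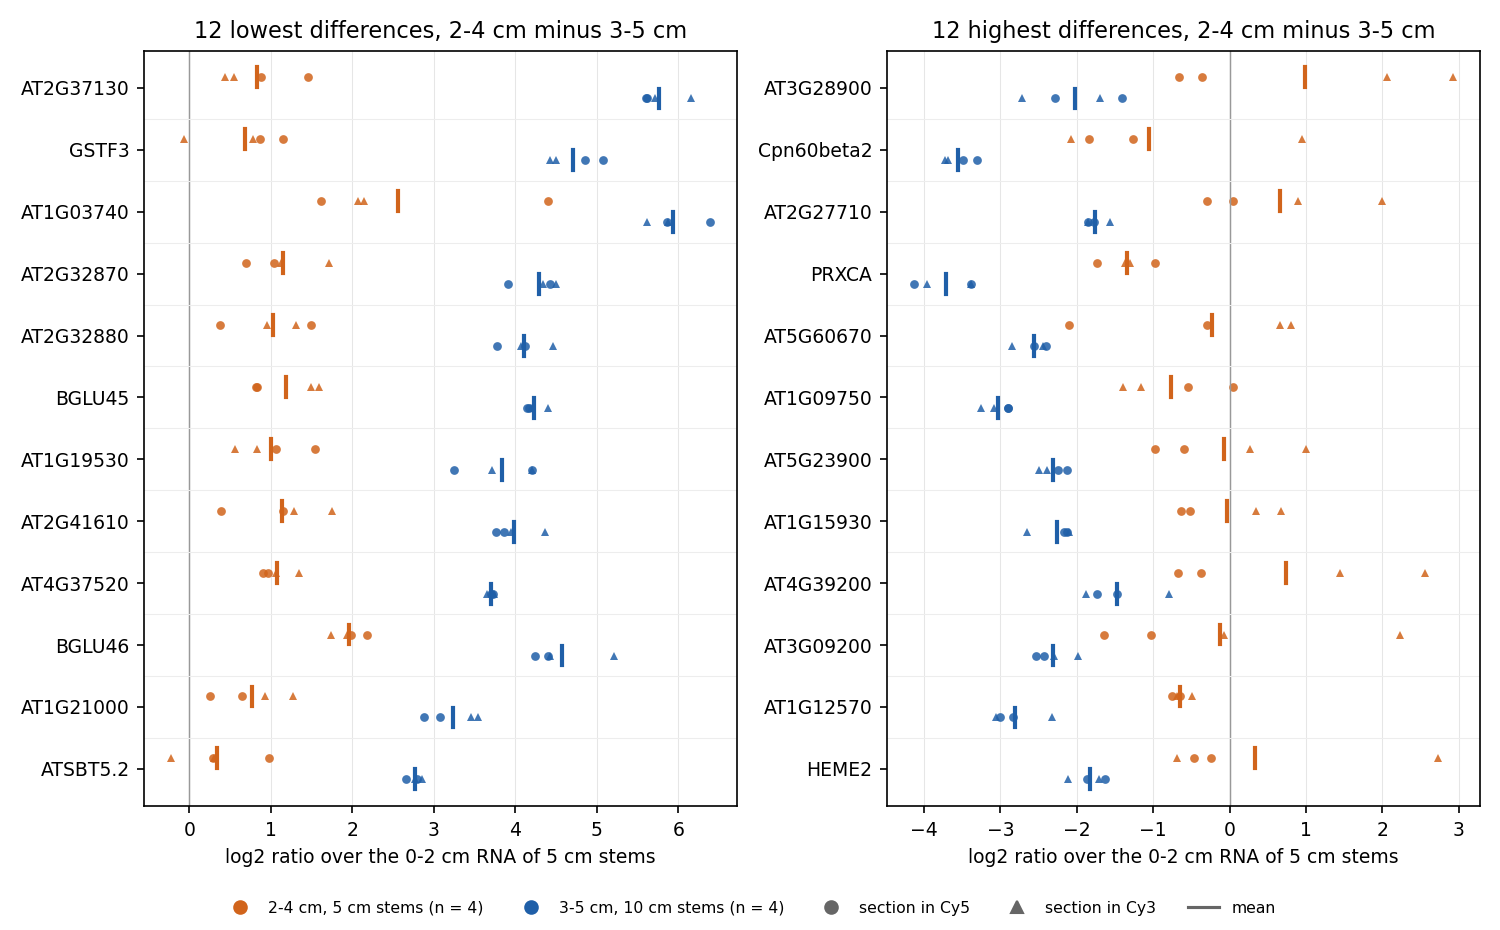
Log2 ratio over the 0-2 cm RNA on each array for the 12 named genes with the lowest differences (left) and the 12 with the highest (right), 2-4 cm (orange) above 3-5 cm (blue) in each row, circles for Cy5 and triangles for Cy3 sections, bars for means of 4 arrays. Both sets were picked among called genes without overlap between the sections. In the low set the means of both sections are above 0, at 0.34 to 2.56 in 2-4 cm and 2.77 to 5.94 in 3-5 cm.

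Other genes with very low differences were well above the 0-2 cm RNA in 3-5 cm. GSTF3, a glutathione S-transferase gene of the phi class, had 0.87, 1.15, -0.07 and 0.78 in 2-4 cm, against 5.07, 4.85, 4.42 and 4.50 in 3-5 cm, a difference of -4.03 ± 0.309 (16.3-fold, adjusted p = 4.2e-07). It was the only one of 11 glutathione S-transferase genes called, a share of 9.1% that is near the 11.2% of all probes (median difference -0.20). GSTF4, of the same class, averaged 0.53 in 2-4 cm and 0.97 in 3-5 cm and was not called (-0.44 ± 0.181, adjusted p = 0.126). The adjacent loci AT2G32870 and AT2G32880 had differences of -3.15 ± 0.443 (adjusted p = 0.000134) and -3.07 ± 0.438 (adjusted p = 0.000148). AT2G32870 had 1.04, 0.70, 1.71 and 1.13 in 2-4 cm, against 4.43, 3.91, 4.34 and 4.50 in 3-5 cm, and AT2G32880 had 1.49, 0.38, 0.95 and 1.31 in 2-4 cm, against 4.12, 3.77, 4.07 and 4.46 in 3-5 cm. The adjacent loci thus had like values on the arrays of each section.

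AT1G03740 had the highest mean ratio in 3-5 cm of the 12 lowest, 5.94 ± 0.327 (SD, n = 4), against 2.56 ± 1.25 in 2-4 cm, where replicate 1 was at 4.40 and the others between 1.62 and 2.15. Its difference of -3.37 ± 0.706 (adjusted p = 0.00356) was -2.04 and not called with scaled arrays (adjusted p = 0.131). The subtilisin-like protease gene ATSBT5.2 had 0.98, 0.29, -0.22 and 0.31 in 2-4 cm, against 2.66, 2.79, 2.86 and 2.77 in 3-5 cm (-2.43 ± 0.423, adjusted p = 0.000852). AT1G19530 (-2.84), AT2G41610 (-2.84) and AT1G21000 (-2.46) complete the lowest 12, which were picked among genes without overlap between arrays. At the other end, AT1G09750 differed by 2.27 ± 0.289 (adjusted p = 5.07e-05) and AT1G12570 by 2.16 ± 0.538 (adjusted p = 0.0117). AT1G09750 averaged -0.77 in 2-4 cm and -3.03 in 3-5 cm, and AT1G12570 -0.64 in 2-4 cm and -2.81 in 3-5 cm. AT1G12570 was not called with scaled arrays (1.70, adjusted p = 0.0539).

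Genes of photosynthesis and of tetrapyrrole synthesis, the pathway to chlorophyll and haem, gave 4 higher and none lower of 16 (25% called against 11.2% of all probes, median difference 0.27). The 4 belong to the tetrapyrrole pathway, of which PORB, a protochlorophyllide reductase gene, was not called (0.27 ± 0.376, adjusted p = 0.725). HEME1, a uroporphyrinogen decarboxylase gene, had -0.37, -0.38, -0.89 and -0.88 in 2-4 cm, against -1.55, -1.67, -1.62 and -1.70 in 3-5 cm (1.01 ± 0.291, adjusted p = 0.0282), without overlap. HEME2, for the same step, had -0.47, -0.24 and -0.69 in 2-4 cm replicates 1 to 3 but 2.72 in replicate 4, against -1.63, -1.87, -1.71 and -2.11 in 3-5 cm (2.16 ± 0.483, adjusted p = 0.00584). Without 2-4 cm replicate 4 the difference was 1.38 and still called. In the limma fit on the 8 arrays alone with array weights, HEME2 was not called (2.05, adjusted p = 0.0636). HEMB1 (0.91 ± 0.255, adjusted p = 0.0239) and CHLM (0.89 ± 0.248, adjusted p = 0.0231) also had their highest 2-4 cm value in replicate 4, 0.62 and 0.65, and without that array their differences were 0.62 (adjusted p = 0.107) and 0.67 (adjusted p = 0.101). HEME1 was not called without replicates 1 or 2 of 2-4 cm or any replicate of 3-5 cm (0.90 to 1.05). HEMB1 was also lost without replicates 1, 3 or 4 of 3-5 cm, and CHLM without replicate 1 of 2-4 cm or replicates 1, 2 or 3 of 3-5 cm. With 1 array left out, 1 to 4 of the 16 genes were higher, the count of 1 being without 3-5 cm replicates 1 or 3, and with scaled arrays 1 was.

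None of the probes that stood for light-harvesting and photosystem genes was called, among them LHCB4.2 (0.77 in 2-4 cm and 0.89 in 3-5 cm) and PSAE-1 (0.43 in 2-4 cm and 0.57 in 3-5 cm). Probes for LHCB4.1 and LHB1B2 lay at the shared value on the 3-5 cm arrays, and a second LHCB4.1 probe, also at that value, was called lower in 2-4 cm (difference -0.82, adjusted p = 0.0424).

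OPS, a regulator of phloem differentiation and the only phloem marker tested, had 0.32, -0.14, -0.20 and -0.32 in 2-4 cm, against -1.78, -1.92, -1.95 and -1.70 in 3-5 cm (1.75 ± 0.271, adjusted p = 0.000294). The 2-4 cm section was near the 0-2 cm RNA and the 3-5 cm section clearly below it. In the older sections of 10 cm stems OPS averaged -3.88 at 5-7 cm and -4.19 at 7-9 cm. PHV, a class III homeodomain-leucine zipper regulator of vascular patterning, averaged -0.26 ± 0.196 in 2-4 cm and -1.06 ± 0.232 in 3-5 cm (SD, n = 4 each), without overlap. It was not called (0.80 ± 0.284, adjusted p = 0.0748) but was in the limma fit on the 8 arrays alone (adjusted p = 0.0161). That fit also lost calls: AT5G12110 (adjusted p = 0.0786), AT4G24780 (0.0749), AT4G00810 (0.061), HEMB1 (0.0567), CHLM (0.0528) and LUP5 (0.0503). The other cell type markers were few: RCA for leaf mesophyll (difference -0.39 ± 0.323) and AMS and SPL for flower parts (-0.11 ± 0.199 and 0.36 ± 0.236) were not called, and no epidermis or meristem marker was among the tested named loci.

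For auxin response genes and for genes of cold and drought the share called was near the 11.2% of all probes. Of 11 auxin response genes, 1 was higher (9.1% called, median difference -0.17): GH3.17, which conjugates auxin to amino acids, had 0.45, 0.38, 1.14 and 1.01 in 2-4 cm, against 0.21, -0.68, -0.19 and -0.61 in 3-5 cm (1.07 ± 0.216, adjusted p = 0.00275). Of 16 cold and drought genes, 1 was higher and 1 lower (12.5% called, median difference -0.06). The dehydrin gene LTI30 had 1.74, 1.39, 1.15 and 1.06 in 2-4 cm, against 2.15, 2.08, 1.93 and 2.07 in 3-5 cm (-0.72 ± 0.188, adjusted p = 0.0158), and the drought-induced gene DI21 averaged -1.67 ± 0.459 in 2-4 cm and -2.76 ± 0.507 in 3-5 cm, with overlap (1.08 ± 0.265, adjusted p = 0.0104). Neither was called with scaled arrays, nor LTI30 without 2-4 cm replicate 4 (adjusted p = 0.0529) or DI21 without 3-5 cm replicate 3 (adjusted p = 0.0503). Both tested heat shock genes were not called. The plantacyanin gene ARPN averaged -2.16 ± 0.515 in 2-4 cm and -3.44 ± 0.0472 in 3-5 cm, and its call (1.28 ± 0.413, adjusted p = 0.0498) was lost without any 1 of the 8 arrays.

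A small set of probes had their 2-4 cm ratio outside both the 0-2 cm RNA and the 3-5 cm section, with both differences called: 81 above both (0.315%) and 54 below both (0.21%). With scaled arrays these counts were 172 and 118. With 1 array left out they were 38 to 136 and 33 to 59; the first was 136 without 2-4 cm replicate 2 and 38 without 2-4 cm replicate 4, and the second 33 without 3-5 cm replicate 1. EXPA15, described above, lay above both. AT2G14900 had 0.80, 0.75, 0.58 and 1.50 in 2-4 cm, against -0.79, -0.87, -1.06 and -0.73 in 3-5 cm (1.77 ± 0.406, adjusted p = 0.00687), and AT1G68730 had 1.08, 1.43, 0.77 and 0.48 in 2-4 cm, against 0.18, 0.04, -0.40 and -0.74 in 3-5 cm (1.17 ± 0.253, adjusted p = 0.00457). Neither overlapped between sections. LUP5, a gene of the triterpene-forming cyclase family, had 1.24, -0.93, 1.87 and 1.73 in 2-4 cm, against -0.42, -0.75, -0.63 and -0.85 in 3-5 cm, and replicate 2 of 2-4 cm overlapped with 3-5 cm (1.64 ± 0.421, adjusted p = 0.0144). Without replicate 3 or 4 of 2-4 cm LUP5 was not called (1.36 and 1.41). AT3G12510 also overlapped, its replicate 1 of 2-4 cm at -0.39 and the others at 1.02 to 1.89, against -0.75 to -0.33 in 3-5 cm (1.49 ± 0.308, adjusted p = 0.00333).

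Below both lay AT1G54740, with -0.50, -1.86, -0.41 and -0.79 in 2-4 cm against 0.71, 0.58, 0.58 and 0.36 in 3-5 cm (-1.45 ± 0.307, adjusted p = 0.00392). AT1G45180 had -1.08, -0.46, -0.74 and -0.78 in 2-4 cm, against -0.01, 0.27, 1.01 and 0.14 in 3-5 cm (-1.12 ± 0.228, adjusted p = 0.00279). Both were without overlap. AT1G76980 (-0.84 ± 0.226) and AT3G16990 (-0.78 ± 0.193) differed less, and AT1G76980 was not called without 2-4 cm replicate 4 (-0.81) or 3-5 cm replicate 1 (-0.69). AT5G51105 lay at the shared value on every 3-5 cm array, as did the other probes described at the outset (difference -1.20 ± 0.269, adjusted p = 0.00597).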

How the data were processed

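The deposited values are log2 ratios of section over the 0-2 cm RNA, by the order in the titles. No source used here names the log base. It was taken as 2, on which folds rest but tests do not. The authors scanned with a ScanArray Express, per the labels. How they corrected background and normalized is not given in the sources used here. Spot intensities were not used here, so depth over background is unknown and the number of arrays limits precision.

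Platform annotation listed 8519 probes, 8338 with 1 gene, of which 8302 matched the TAIR10.1 RefSeq table, used for names only. Families of loci without a symbol were taken from general knowledge of locus numbers. Probes for near-identical copies, as among ribosomal protein genes, may share signal, which was not tested. Where probes shared a locus, 1 of them, that with values on the greatest number of arrays, was kept for lists. Of 229 such loci, 7 had at least 2 probes called, and in 6 these lay on the same side.

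The model, fitted in limma 3.58.1 (R 4.3.3), had a mean per section and a dye term over all 20 arrays (14 residual degrees of freedom), with eBayes and Benjamini-Hochberg adjustment over the 25720 probes measured on at least 3 of 4 arrays of every section. Called means adjusted p under 0.05, and ± after a difference is its SE. That SE rests on 1 spread per probe shared by all sections, which can differ from the spread of the 8 arrays compared. AT3G28900 had an SD of 1.77 in 2-4 cm and 0.59 in 3-5 cm. In the limma fit on the 8 arrays alone its adjusted p was 0.0126 against 0.00128, while that of PRXCA was 0.000487 against 0.00277. Since the labels do not state that replicates came from separate plants, p-values reflect spread between arrays, which may be technical. On simulated data of 25720 probes, 48 of 100 differences of 1 and 96 of 100 of 2 were called, with 9 false calls. Only those probes were changed there, and errors were independent, normal and of equal spread in all sections, without a dye effect. The real arrays differ in these points, so the figures need not hold for them. Same-numbered arrays of both sections deviated together (r = 0.108 to 0.194), but they share a dye, and with dye means removed r was -0.00638 and -0.0192.

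Named genes were the 12 highest and 12 lowest called differences without overlap between arrays, passing over pseudogenes, up to 4 called genes per list and direction, up to 5 above and below both other sections, and genes reported earlier for either section. The members and lists were chosen with earlier results of these data known. Alternatives were fits on other arrays, weights, centring, scaling, filters, dye, replicate block and leaving out each array. Python 3.11.15 summarised the fits. No sequences are shown, since no sequence table was used.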

Additional observations from a re-analysis of the deposited data

Results flagged for a closer look

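For 84 named probes, the 4 arrays of each section were searched for a highest or lowest array far from the others, by Dixon's test at 95%. Chance alone marks about 1 in 20 groups, and 11 of 168 were marked, 4 of them by 2-4 cm replicate 4 and 3 by 3-5 cm replicate 4. In 2-4 cm replicate 4, HEME2 was at 2.72 against -0.69 to -0.24 on the other arrays, HEMB1 at 0.62 against -0.68 to -0.46, the second AT2G37130 probe at 1.87 against 0.38 to 0.59, and DI21 at -2.36 against -1.48 to -1.39. In 2-4 cm replicate 1, TOPII was at -1.24 against -0.26 to -0.16. EXGT-A3 was at 0.73 in 2-4 cm replicate 2 against 0.29 to 0.34. In 3-5 cm replicate 4, AT1G15930 was at -2.65 against -2.17 to -2.10, AT1G67750 at -0.76 against -1.42 to -1.31, and TBL37 at 1.42 against 1.96 to 2.00. In 3-5 cm replicate 2, AT4G24780 was at -0.66 against -0.43 to -0.39 and EXPA15 at -0.20 against 0.14 to 0.15.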

How the results depend on the processing

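Scaling every array to the same spread left 1227 probes called, 731 at least 2-fold, 600 between 0 and the 3-5 cm ratio, and 19 ribosomal protein genes higher with a median of 0.75. By construction it shrinks the wider 3-5 cm ratios. Array weights moved the count of calls about as far the other way, to 4576, with 3118 between; the cause was not tested. The replicate number as a block gave 2851 calls against 2893, and of the called named probes 1 lost its call (TBL33). With 1 array left out, 2031 to 2284 probes were called, 1297 to 1486 at least 2-fold, 1460 to 1570 lay between, and 53 to 62 ribosomal protein genes were higher, median 1.04 to 1.22. The probes above both other sections were 81, or 172 with scaling and 206 with array weights, and those below both 54, 118 and 149. Of 78 called named probes, 37 stayed called under all 21 alternatives, 35 lost their call with scaling, and no probe called under both turned direction. Alternatives chosen after seeing the data gave 3973 calls (weights on the 8 arrays alone), 3074 (without the 0-3 cm arrays) and 2885 (without the 41 probes at a shared value). The SE of a difference, 0.245 at the median, limits what 4 arrays a section can show.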

Other observations

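Outside the gene groups above, 41 further loci with a gene symbol were called, differed at least 2-fold and had no overlap between arrays. Of them, 22 were lower and 19 higher in the 2-4 cm section. Over all tested probes, 5.79% were called and at least 2-fold, with or without overlap. The number of loci with a symbol outside those groups was not counted, so the 41 have no share of their own. They were picked out after their values were seen, so no count here is a test. Among those lower were 3 genes of leucine breakdown. MCCA and MCCB, the subunits of methylcrotonyl-CoA carboxylase, had ratios under 0 on every 2-4 cm array, some of them close to 0, and above 0 on every 3-5 cm array. No call against the 0-2 cm RNA is given for them. MCCA had -0.19, -0.36, -0.49 and -0.08 in 2-4 cm, against 1.26, 1.23, 1.55 and 1.07 in 3-5 cm (difference -1.56 ± 0.187, limma adjusted p = 2.76e-05). MCCB had -0.87, -0.70, -0.18 and -0.02 in 2-4 cm, against 0.81, 0.94, 1.20 and 1.66 in 3-5 cm (-1.60 ± 0.246, adjusted p = 0.000289). IVD, isovaleryl-CoA dehydrogenase, had 0.79, 0.97, 0.83 and 0.25 in 2-4 cm, against 2.35, 2.14, 2.55 and 2.49 in 3-5 cm (-1.67 ± 0.25, adjusted p = 0.000214). Like all 41, these 3 had no overlap between the sections, and each of the 3 stayed called with scaled arrays and with any 1 array left out.

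Further genes of these 41 are given as values. The vacuolar processing enzyme GAMMA-VPE had 1.08, 0.97, 0.94 and 0.82 in 2-4 cm, against 3.31, 3.23, 2.96 and 3.58 in 3-5 cm (-2.32 ± 0.333, adjusted p = 0.000152). ATG8H, an autophagy protein, had 0.80, 0.46, 0.86 and 1.01 in 2-4 cm, against 2.61, 1.76, 2.45 and 2.40 in 3-5 cm (-1.52 ± 0.209, adjusted p = 0.000113). ALN, the allantoinase of purine breakdown, differed by -1.62 ± 0.325 (adjusted p = 0.00254). Among those higher were the mitotic kinase Haspin (1.26 ± 0.349, adjusted p = 0.0223), the spindle checkpoint gene BUBR1 (ratios of -0.63 to -0.13 in 2-4 cm against -1.59 to -1.20 in 3-5 cm, adjusted p = 0.0385) and UBC20 (1.21 ± 0.311, adjusted p = 0.0147). Those 3 lost their calls with scaled arrays (adjusted p of 0.12, 0.131 and 0.0779) and without any of 5, 7 and 2 single arrays. ACT12, an actin, had 0.61, 0.43, 0.58 and 0.76 in 2-4 cm, against -0.48, -0.67, -0.96 and -0.96 in 3-5 cm (1.36 ± 0.317, adjusted p = 0.00768), and stayed called with scaled arrays (1.43, adjusted p = 0.0167).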
